A study of Bos taurus with 30 samples.

Results

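The miRNAs miR-132 and miR-212 were followed in anterior pituitary tissue from bull calves of the Holstein-Friesian breed, reared on a High (HI) or a Moderate (MOD) plane of nutrition. They are the 2 rows named bta-miR-132 and bta-miR-212 of the 1030 mature miRNAs in the deposited small RNA sequencing table, chosen by name and not by their values. No other row of the table carried either number in its name. The table names no hairpin arm for these rows, and mature sequences were not used here, so seeds were not compared. From 2 to 12 weeks of age the daily allowance of milk replacer was 1.5 kg in 10 litres for HI calves (n = 15), which had free access to concentrates. MOD calves (n = 15) were given 0.5 kg in 4 litres and at most 0.5 kg of concentrates. All calves were entire males of the same breed, sampled at 12 weeks with 1 library per calf, and the labels give no hormone treatment. Per the study's methods, calves were allocated to diets within blocks of age, weight, sire and farm, which were not used here. RNA came from a portion of each anterior pituitary without separation of cell types, so that more cells of a type and more of a miRNA per cell cannot be told apart.

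The hairpins of miR-132 and miR-212 lie side by side and are known to be cut from a shared primary transcript. That transcript is switched on by CREB, the transcription factor that cAMP and calcium signalling activate. In gonadotrophs, the pituitary cells that make LH and FSH, the hypothalamic hormone GnRH is known to induce the pair, and they are linked there to FSH production through repression of the deacetylase SIRT1. Neurons are the other well known site of their expression. RefSeq's annotation of ARS-UCD2.0 is on another build than the alignments. In it MIR132 and MIR212 were next to each other with no annotated gene between them. OVCA2 and DPH1, which takes part in diphthamide synthesis, lay on the MIR132 side, and the transcriptional repressor HIC1 and SMG6, of nonsense-mediated decay, lay on the MIR212 side.

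Libraries held 6650492 to 11086524 reads on miRNAs. Values are CPM, reads scaled to the library total after TMM, a correction for library composition. A miRNA without reads could have been at up to 3 reads, or at most 0.419 CPM. The endocrine miR-375 averaged 143338 CPM on the HI diet and 148775 CPM on the MOD diet, while the neuronal miR-124a averaged under 1 CPM in either diet. The 9 libraries whose calves carry the highest numbers in their labels (5 HI, 4 MOD) stand apart from the remaining 21 in many miRNAs, so values are given within each set too. HI replicate 1 stood apart in miR-143, a smooth muscle miRNA, at 181565 CPM against at most 80613 CPM in the other calves.

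Both miRNAs were well above the detection limit in every calf. The mean level of miR-132 over the 30 calves was 4057 CPM, rank 39 of the 840 miRNAs found in at least 1 library, with 22699 to 53642 reads per library. For miR-212 it was 196 CPM, rank 133 of 840, with 1098 to 2883 reads per library. The 2 miRNAs therefore differed in level by a factor of 21 ± 4.34 (SD, n = 30) in reads, a ratio that also holds any difference in how well each sequence is captured in library preparation.

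Expression of miR-132 was close in the 2 diets. In HI calves the lowest value was 2567 CPM, the median 4256 CPM and the highest 5610 CPM, with a mean of 4246 ± 857 CPM (SD, n = 15). In MOD calves the lowest was 2631 CPM, the median 4117 CPM and the highest 5063 CPM, with a mean of 3867 ± 787 CPM (SD, n = 15). The ranges overlapped almost completely. Of the HI calves 9 lay above and 6 below the MOD median, 2 lay above the highest MOD calf and 1 lay below the lowest. The fold change (HI over MOD) on log2(CPM + 1) was 0.13 with a standard error of 0.11 and FDR = 0.721 (limma, Benjamini-Hochberg over 419 miRNAs). As a fold it was 1.1 with a 95% interval of 0.942 to 1.28. In the same fit 0.477% of all miRNAs passed FDR < 0.1 and a fold change of 1.5, and miR-132 was not among them. At FDR < 0.1 alone 3.58% passed, 1.91% as higher in HI calves, and with edgeR's quasi-likelihood test on reads 0.955% passed both thresholds. Neither miR-132 nor miR-212 was called in any of these.

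Expression of miR-212 differed by the same small amount. In HI calves the lowest value was 127 CPM, in replicate 1, the median was 208 CPM and the highest was 278 CPM, in replicate 4, with a mean of 206 ± 40.8 CPM (SD, n = 15). In MOD calves the lowest was 154 CPM, the median 189 CPM and the highest 243 CPM, with a mean of 185 ± 22.4 CPM (SD, n = 15). The MOD median was exceeded in 11 HI calves and not in 4, and again 2 lay above the highest MOD calf and 1 below the lowest. The log2 fold change was 0.13 with a standard error of 0.09 and FDR = 0.650 (limma, Benjamini-Hochberg), and the fold was 1.1 with a 95% interval of 0.970 to 1.24. The difference was therefore within the spread between calves for both miRNAs. Over all 419 miRNAs the median log2 fold change was 0.02.

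**Figure D1:**
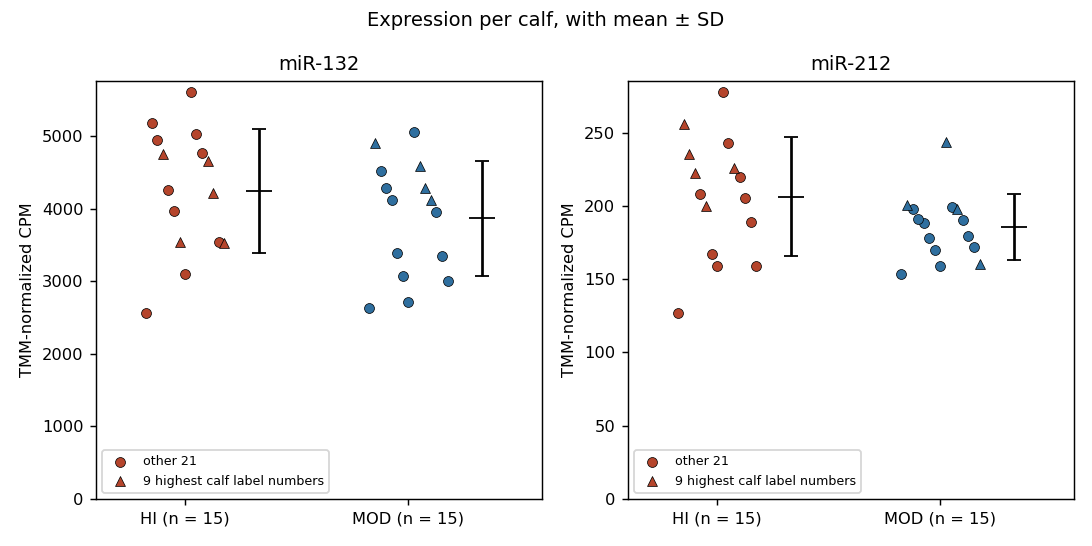
TMM-normalized CPM of miR-132 (left) and miR-212 (right) in each calf by diet, with the mean ± SD of each diet (n = 15) as a bar beside the points. Triangles mark the set of 9 libraries. The HI and MOD points overlap over nearly their whole range, and the HI points of miR-212 spread more widely than the MOD points, from 127 to 278 CPM against 154 to 243 CPM.

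The size of the difference, but not its side of the threshold, depended on the scaling of the libraries. With upper quartile normalization the log2 fold change fell to 0.04 for each miRNA. Adding miR-486, a member of the red blood cell list, to the model as a covariate gave 0.06 for miR-132 and 0.01 for miR-212. Of the 418 other tested miRNAs, miR-486 had the lowest Spearman's rho with miR-212 in these same libraries, so that fit tested no cause. On total reads the log2 fold change was 0.20 for each, and there the unadjusted p of miR-212 was 0.0464 with FDR = 0.330 (limma). In the 40 limma fits of each miRNA, those that left out 1 calf included, the upper 95% bound stayed at or under 0.44 for miR-132 and 0.39 for miR-212, short of the 0.585 that a fold change of 1.5 requires.

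**Figure D2:**
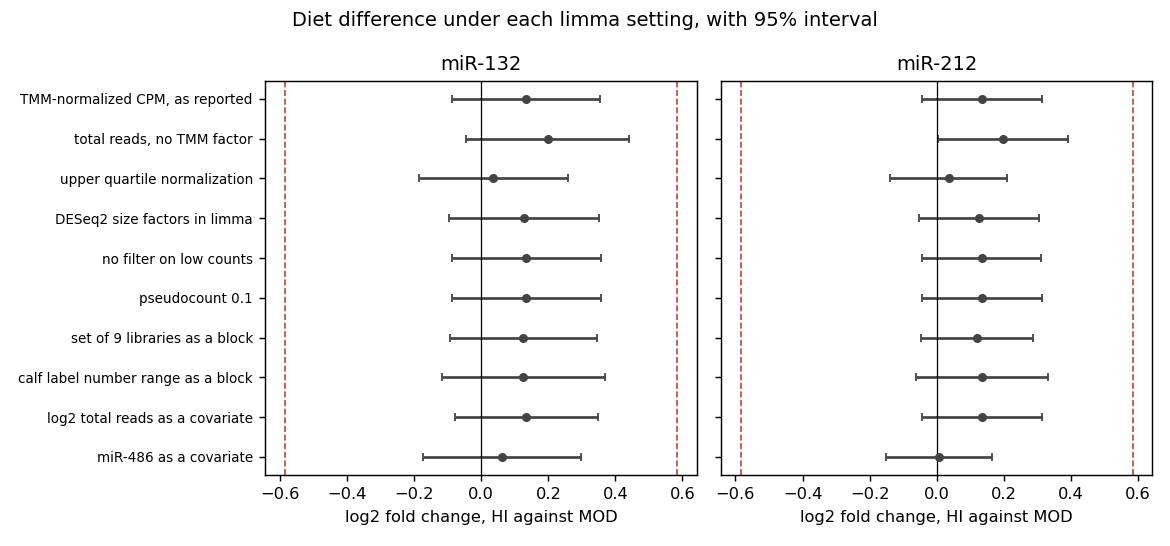
Log2 fold change of HI against MOD (x axis) for miR-132 (left) and miR-212 (right) under each limma setting (rows), with 95% intervals. Dashed lines mark a fold change of 1.5 in either direction. Every interval lies inside the dashed lines, and those of miR-132 include 0 in each setting shown.

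Within the 21 libraries with lower label numbers miR-132 averaged 4298 ± 989 CPM in HI (SD, n = 10) and 3645 ± 792 CPM in MOD calves (SD, n = 11), a log2 difference of 0.23 (two-sided permutation test, p = 0.134). Within the other 9 the order was the opposite, with 4143 ± 590 CPM in HI (SD, n = 5) and 4477 ± 348 CPM in MOD calves (SD, n = 4), a log2 difference of -0.12 (exact two-sided permutation test, p = 0.317). For miR-212 the log2 difference was 0.09 within the 21 (two-sided permutation test, p = 0.418) and 0.20 within the 9 (exact two-sided permutation test, p = 0.159). The difference of the diet effect between the sets was itself tested. It was -0.35 with a standard error of 0.23 for miR-132 and 0.11 with a standard error of 0.18 for miR-212 (limma interaction term, FDR = 0.800 and 0.889 with Benjamini-Hochberg). In that comparison 0% of the 419 miRNAs passed FDR < 0.1, and 21 had an unadjusted p under 0.05.

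The sets of libraries were also compared directly, with diet in the model. The mean of miR-212 was 216 ± 29.1 CPM in the 9 (SD, n = 9) and 187 ± 32.9 CPM in the 21 (SD, n = 21), a log2 difference of 0.20 with a standard error of 0.09 and FDR = 0.116 (limma, Benjamini-Hochberg). For miR-132 the means were 4292 ± 500.5 CPM and 3956 ± 930.2 CPM, a log2 difference of 0.14 with a standard error of 0.12 and FDR = 0.429 (limma, Benjamini-Hochberg). Neither passed FDR < 0.1 in a comparison in which 26.0% of all miRNAs did, or 27.0% with edgeR's quasi-likelihood test. The set was defined from the values of other miRNAs in an earlier analysis of these libraries. The shares of all miRNAs that passed can be raised by that choice, and are not a neutral background for the pair.

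The spread between calves was larger for miR-132 than for most tested miRNAs, also among those at or above the mean level of miR-212. Its SD on the log2 scale within diets was 0.309, rank 130 from the highest of all 419 tested miRNAs, for which the median was 0.251. Among the 133 tested miRNAs at or above the mean level of miR-212 it ranked 25, with a median of 0.202. For miR-212 the SD was 0.244, rank 227 of 419 and 42 of these 133. Counting error alone, with reads taken as independent molecules, would give an SD of 0.00769 for miR-132 and of 0.0349 for miR-212, at mean counts of 35159 and 1712 reads. The neighbours of miR-132 in mean level had a smaller spread in CPM, with 4546 ± 419 CPM for miR-151-5p and 3749 ± 245 CPM for miR-103 (SD, n = 30) against 4057 ± 831 CPM for miR-132. Around miR-212, at 196 ± 34 CPM, miR-708 was at 200 ± 28.5 CPM and miR-30f at 183 ± 22.5 CPM (SD, n = 30). By diet, the SD of miR-132 on the log2 scale was 0.312 in HI and 0.307 in MOD calves. For miR-212 it was 0.301 in HI and 0.168 in MOD calves, a difference in spread that was not tested.

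The pair rose and fell together only in part. Over the 30 calves Pearson's r of the log2 values was 0.48 (permutation p = 0.00642, adjusted p = 0.0128) and Spearman's rho was 0.44 (permutation p = 0.0164, adjusted p = 0.0164), with Benjamini-Hochberg adjustment over these 2 coefficients. Without the 2 calves farthest from the median of miR-132, HI replicate 3 and MOD replicate 14, r was 0.42 (permutation p = 0.0248) and rho was 0.37 (permutation p = 0.0542). Within MOD calves r was 0.59 (permutation p = 0.020) and rho was 0.63 (permutation p = 0.0142). Within HI calves r was 0.40 (permutation p = 0.136) and rho was 0.23 (permutation p = 0.411). Within the 21 libraries r was 0.53 (permutation p = 0.0129), whereas r in the set of 9 was 0.00071 (exact permutation test, p = 0.999). The relation was thus not detected within the 9 libraries, and whether the sets differ in it was not tested. The calf with the highest miR-132, HI replicate 4, also had the highest miR-212, whereas HI replicates 2 and 10 had miR-132 at 4774 and 4955 CPM with miR-212 at 159 CPM in each.

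**Figure D3:**
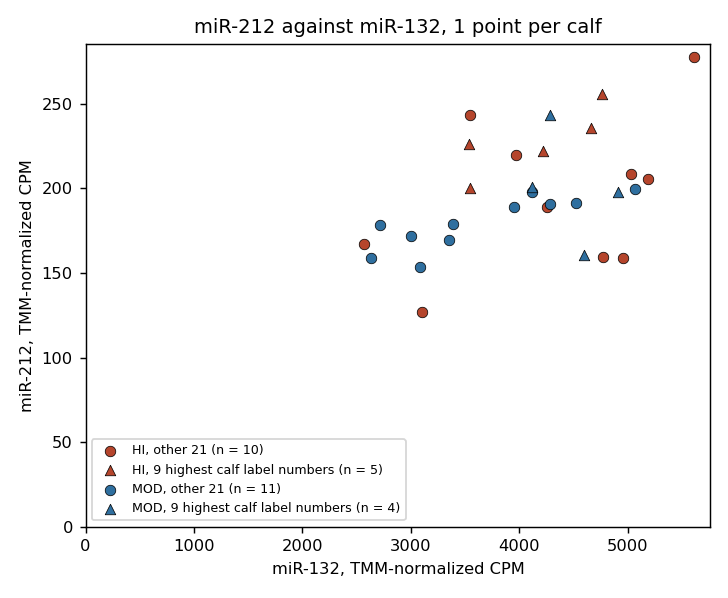
TMM-normalized CPM of miR-212 (y axis) against miR-132 (x axis), 1 point per calf, colored by diet, with triangles for the 9 highest label numbers. Points rise from left to right with a wide scatter (Pearson's r = 0.48 on the log2 scale), and r among the triangles is 0.00071 (n = 9).

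The ratio of the reads of miR-132 to those of miR-212 does not depend on how libraries are scaled. It was 14.6 at the lowest, 19.8 at the median and 31.2 at the highest in HI calves, and 15.2, 20.5 and 28.7 in MOD calves. Mean ratios were 21.1 ± 5.07 (SD, n = 15) and 20.9 ± 3.64 (SD, n = 15). The log2 ratio differed between diets by 0.00029 (two-sided permutation test, p = 0.998), so no difference in the ratio was detected between diets. The 95% interval of that value, from a t distribution with pooled variance, was -0.22 to 0.22. Within the 21 libraries the log2 difference was 0.14 (two-sided permutation test, p = 0.298), and within the 9 it was -0.32 (exact two-sided permutation test, p = 0.0794).

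The miRNAs whose levels followed the pair most closely across calves were not the same for the 2 miRNAs. These values are descriptions over 30 libraries that share a common scaling. For miR-132 the highest Spearman's rho among 418 other tested miRNAs belonged to miR-324 (0.48), miR-1264 (0.48) and miR-137 (0.47). In that ranking miR-212 was 9 of 418. The lowest belonged to miR-296-5p (-0.61), miR-299-2 (-0.60) and the abundant miR-148a (-0.59). For miR-212 the highest belonged to miR-130b (0.70), miR-2285dd (0.59) and miR-2285da (0.59), of the ruminant miR-2285 family, and miR-132 ranked 26 of 418. The 2 miR-2285 rows had nearly equal values and may hold the same reads. With miR-132 the rho of miR-130b was 0.05, and with miR-212 that of miR-324 was -0.21. Low with both was miR-299-2, which had a rho of -0.53 with miR-212 at a mean of only 1.48 CPM. Within the 21 libraries rho was 0.62 for miR-130b with miR-212, but 0.35 for miR-2285dd and miR-2285da and -0.42 for miR-378d, while miR-324 and miR-296-5p were at 0.50 and -0.64 with miR-132. None of the miRNAs in these lists passed FDR < 0.1 between diets in limma.

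**Figure D4:**
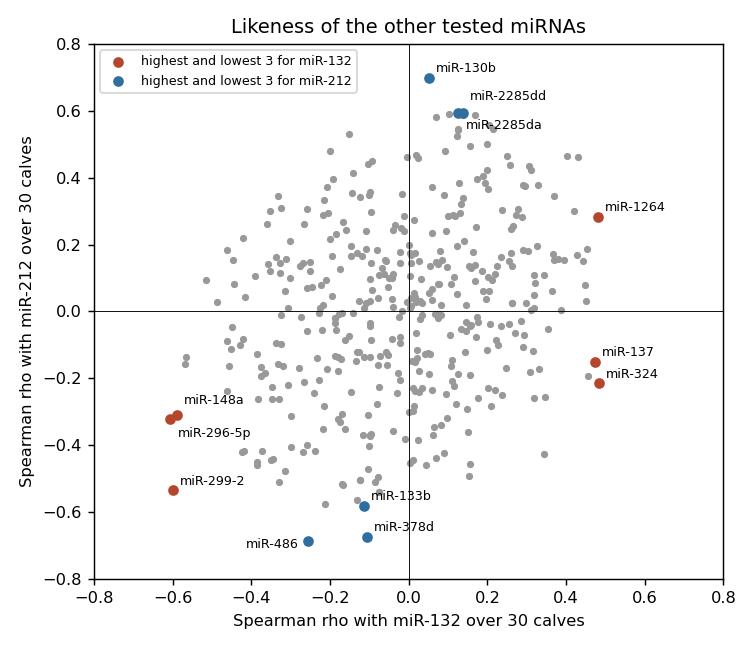
Spearman's rho over 30 calves of each other tested miRNA with miR-132 (x axis) and with miR-212 (y axis). The 3 highest and 3 lowest for each are colored and named. The named points of miR-212, such as miR-130b at 0.70 and miR-486 at -0.69, were picked as extremes on that axis and lie nearer to 0 on the miR-132 axis. Of the points named for miR-132, miR-299-2 is low on both axes, at -0.60 and -0.53.

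The lowest rho with miR-212 belonged to miR-486, at -0.69, followed by miR-378d at -0.67 and the striated muscle miR-133b at -0.58. Mean levels of miR-378d and miR-133b were low, at 2.48 and 1.77 CPM. Expression of miR-486 ran from 10396 CPM to 24338 CPM in HI calves (median 17259 CPM) and from 15438 CPM to 27356 CPM in MOD calves (median 20481 CPM). The log2 fold change of miR-486 was -0.27 with a standard error of 0.11 and FDR = 0.274 (limma, Benjamini-Hochberg), which did not pass. Within HI calves the rho of miR-486 with miR-212 was -0.84 (n = 15) and within MOD calves it was -0.02 (n = 15), while within the 9 and the 21 libraries it was -0.83 and -0.61. With miR-132 the rho of miR-486 was -0.26 over the 30 calves. The other members of the red blood cell list did not pass either in limma. Their log2 fold changes were 0.55 for miR-451 (FDR = 0.190) and 0.46 for miR-144 (FDR = 0.115). These lay in the other direction from miR-486, and rho with miR-212 was 0.006 for miR-451 and 0.04 for miR-144. The study called both miRNAs higher in HI calves with its own edgeR test. With miR-486 in the model, the log2 fold change of miR-212 between diets was 0.01 with a standard error of 0.08, against 0.13 without it. That fall was not a test of a cause. In these same libraries miR-486 was the lowest of 418 miRNAs in rho with miR-212, and it was measured at the end of the diets.

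**Figure D5:**
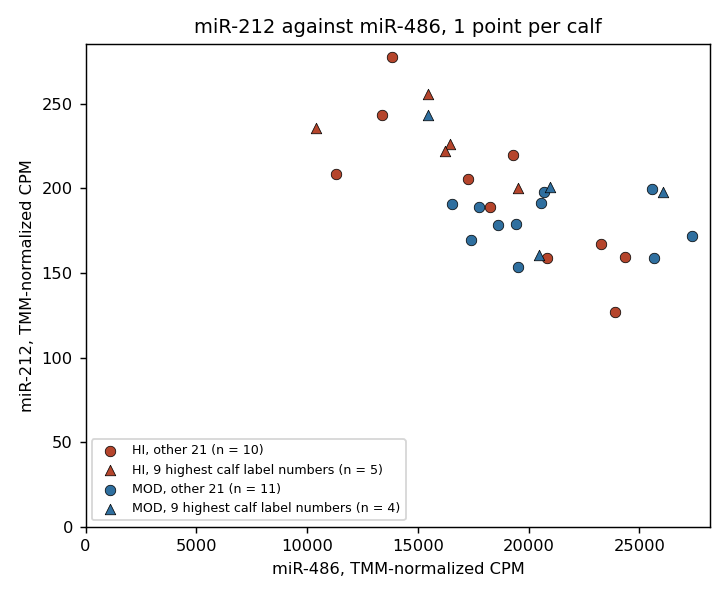
TMM-normalized CPM of miR-212 (y axis) against miR-486 (x axis), 1 point per calf, colored by diet, with triangles for the 9 highest label numbers. HI points fall from upper left to lower right (rho = -0.84), and the rho of the MOD points is -0.02. The difference between the diets in rho was not tested.

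Of the other miRNAs linked to GnRH or to gonadotrophin production, 11 were tested and 1 passed FDR < 0.1, as lower in HI calves. Of all miRNAs 3.58% passed, 1.67% as lower in HI calves. A count of 1 in 11 is too small to read against these shares. The member that passed was miR-29a, a regulator of collagen genes in many tissues that has also been linked to FSH. Its mean was 2638 ± 143.1 CPM on the HI diet (SD, n = 15) and 2914 ± 208 CPM on the MOD diet (SD, n = 15), a log2 fold change of -0.14 with a standard error of 0.04 and FDR = 0.0365 (limma, Benjamini-Hochberg). It was short of a fold change of 1.5, and did not pass on total reads (FDR = 0.411) or with the calf label number range as a block (FDR = 0.104). The median log2 fold change of the 11 was 0.00, against 0.02 for all 419. None of the others passed in limma. The member with the widest difference was miR-451, at 159 ± 87.2 CPM with HI feeding (SD, n = 15) and 102 ± 34.8 CPM with MOD feeding (SD, n = 15). The study's own edgeR test called miR-451 higher in HI calves. The mean of miR-125b was 5520 CPM under HI against 5806 CPM under MOD feeding, and that of miR-7 was 16225 against 17902 CPM. The ovulation-linked miR-200b was at 768 and 756 CPM, and miR-429 at 848 and 789 CPM. The pituitary endocrine list, miR-375 and miR-7 with 5 miRNAs of the miR-200 family, had 0 of 7 tested members past FDR < 0.1 in limma. That count is too small to read against the 3.58% of all miRNAs that passed. The summed level of the endocrine list ran from 136048 to 232042 CPM in HI and from 156618 to 230380 CPM in MOD calves. Its Spearman's rho over the 30 calves was 0.13 with miR-132 and 0.52 with miR-212. The rho of single members with miR-212 ran from -0.40 for miR-200c to 0.53 for miR-375, the most abundant of them.

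Markers of nervous tissue were examined because neurons also express the pair. The 8 distinct tested members, had a median log2 fold change of 0.08, against 0.02 for all 419, and 0 of 8 passed FDR < 0.1, which 3.58% of all miRNAs did. Their log2 fold changes ran from -0.33 for miR-129-5p and -0.31 for miR-129-3p to 0.21 for miR-137 and 0.28 for miR-9-5p. Their list's summed level ran from 2601 to 4308 CPM in HI and from 2787 to 4328 CPM in MOD calves. It had a rho of -0.01 with miR-132 and of -0.43 with miR-212 over the 30 calves. A sum is weighted to its most abundant members, and single members lay on both sides of 0. With miR-212 the rho of tested members ran from -0.54 for miR-129-5p to 0.32 for miR-138. With miR-132 it ran from -0.10 for miR-9-5p to 0.47 for miR-137. The defining neuronal miR-124a was at 0.968 ± 1.11 CPM with HI feeding (SD, n = 15) and 0.542 ± 0.711 CPM with MOD feeding (SD, n = 15), too low to be tested. Lists for white blood cells, endothelium and stroma had 0 of 4, 0 of 2 and 0 of 6 tested members past FDR < 0.1, counts too small to read against the 3.58% of all miRNAs. Without HI replicate 1, the calf with the highest miR-143 and the lowest miR-212, the log2 fold change of miR-212 was 0.18 with FDR = 0.299 (limma, Benjamini-Hochberg).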

How the data were processed

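Per the labels and the study's methods, the authors trimmed adapters with Cutadapt, filtered reads by length and against other RNA classes, and counted annotated miRNAs of cattle with miRDeep2 on ARS-UCD1.2. The deposited signal is CPM scaled by TMM factors, not raw counts. Whole reads were recovered from the steps between low values. At least 94.8% of the values checked per library were within 0.02 of a whole read. HI and MOD were compared with limma 3.58.1 (eBayes with trend, R 4.3.3) on log2(CPM + 1), over 419 miRNAs kept by filterByExpr, called at FDR < 0.1 and fold change > 1.5 as in the study. The fits were tested on simulated data. edgeR 4.0.16 (quasi-likelihood) and DESeq2 1.42.0 on the recovered reads were alternatives. Permutation tests used 1e+05 resamples, or all arrangements in the 9 libraries. The label number range groups calves by the first of the last 4 digits of their labels into 4 ranges. The named miRNAs are the pair, their neighbours in mean CPM, the 3 highest and 3 lowest in Spearman's rho, and the members of the lists. The miRNAs, lists and the set of 9 were chosen with earlier results of these data known. Sequences, seeds, hairpins and promoters were not analysed here.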

Additional observations from a re-analysis of the deposited data

How the results depend on the processing

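No paired analysis was possible because no label used here ties a calf to a calf of the other diet or to its allocation block. In 11 other settings the log2 fold change of miR-132 ran from 0.04 to 0.20 (FDR 0.459 to 0.913) and that of miR-212 from 0.01 to 0.20 (FDR 0.330 to 0.992, limma, edgeR or DESeq2), and neither passed the thresholds in any. Leaving out 1 calf gave 0.10 to 0.18 for each. The difference in log2 ratio, near 0, changed sign to -0.00021 with a pseudocount of 0.1, and leaving out 1 calf gave -0.0426 to 0.0356 (lowest permutation p = 0.679). Pearson's r of the pair was 0.60 on total reads and 0.41 after removing diet and the set of 9 libraries, and ran from 0.42 to 0.55 with 1 calf left out (highest permutation p = 0.0247). Spearman's rho was 0.57 and 0.39, and ran from 0.38 to 0.53 (highest permutation p = 0.0445). Across 5 other settings the difference between the sets of 9 and 21 libraries ran from 0.10 to 0.22 for miR-132 and from 0.16 to 0.23 for miR-212, with FDR of at least 0.107. The number of all miRNAs past both thresholds was 2, and 0 to 4 in the other settings, and the number past FDR < 0.1 was 15, and 11 to 29. Counting error covers sampling of reads alone, and error from library preparation could not be separated from the spread between calves, since each calf has 1 library.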

Other observations

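What the digits of the calf label number ranges stand for, whether a farm or something else, is not given in the labels. By range, miR-132 averaged 3853 ± 886 CPM (SD, n = 7), 4106 ± 505 CPM (SD, n = 3), 4067 ± 673 CPM (SD, n = 4) and 4134 ± 933 CPM (SD, n = 16). In the same order miR-212 averaged 194 ± 36.4, 193 ± 5.8, 207 ± 54.2 and 195 ± 32.8 CPM. The difference between ranges was not tested.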
